A study of Mus musculus with 4 samples.

Results

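The genes described here are 8 genes of antiviral defence: Znfx1, Zc3hav1, Rnf213, Helz2, Eif2ak2, Pnpt1, Isg20 and Ddx60. Most encode proteins that act on RNA or on its translation, while Rnf213 encodes a ubiquitin ligase. The genes were taken as the probes whose platform gene symbol was one of these names. Each of the 8 had 1 probe, and they were 8 of the 22180 genes that the arrays measured with a probe of a single gene. The genes were chosen by their log2 levels on these same 4 arrays, AT90ES against Mock, so their levels and differences are given as a description, and counts of them past the all-gene threshold stand only beside the same share of all genes.

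The cells were B16-OVA, a mouse melanoma line that carries ovalbumin as a model antigen, and RNA levels were measured on 2 arrays per group. The Mock group was labelled as mock transfected and the AT90ES group as transfected with AT90ES, a name that the study's text links to double-stranded DNA of 90 bases. The same protocol, a 6 hour transfection with the cationic lipid Lipofectamine, stood on the labels of both groups, so what the Mock cells received, and the dose of DNA, are not given, and what the DNA did and what transfection alone did cannot be told apart. Nothing in the labels says that the arrays came from separate cultures, and any p-value then measures the spread between these arrays only, which may be technical.

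Cells that detect foreign nucleic acid make type I interferon, whose receptor activates a complex that holds Stat2 and Irf9. That complex binds a DNA motif called the interferon-stimulated response element (ISRE) near the start of many genes. Among the genes so induced are effectors that unwind, cut or trap viral RNA, or stop ribosomes from translating it, and several of them recognise double-stranded or otherwise unusual RNA and not DNA.

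Levels are the deposited values, log2 of an RMA-normalised intensity. As a background mark served the level that 95 of each 100 olfactory receptor genes stayed under (1105 genes, assumed silent in these cells), which lay between 4.85 and 5.07 on the 4 arrays. Median levels over all probes were 4.83 to 4.91. All 9 measured pigment cell markers lay above the mark on every array, as the label of melanoma cells would have it. Of the other cell types' markers, 4 to 5 of 12 myeloid, 1 of 9 lymphocyte and 7 to 10 of 13 fibroblast and endothelial genes lay above it. The summed linear level of the myeloid markers was 410 to 422 on the Mock and 353 to 384 on the AT90ES arrays, that of the lymphocyte markers 199 to 215 and 194 on both AT90ES arrays, and that of the fibroblast and endothelial markers 445 to 488 and 422 to 467. Ptprc, the pan-leukocyte marker, and Cd3e, of the T cell receptor complex, were under the mark on all 4 arrays. Cd68, Csf1r, Lyz2 and Fcer1g, of the myeloid list, and Nkg7, of the lymphocyte list, were above it on all 4. All of these are marker genes named outside the rule for named genes. The part of other cells in any result was not tested. In such bulk samples, fewer cells of a type and less RNA per cell cannot be told apart.

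Of the 8 genes, 7 had both AT90ES arrays above both Mock arrays, and Pnpt1 had not. Over all genes, 17.7% were separated in that direction and 22.1% in the other, so separation of the arrays is common in this comparison. In limma's fit 5 of the 8 genes passed the threshold as higher, against 0.415% of all genes (92 genes higher and 0 lower; at an unadjusted p under 0.05, 999 higher and 1017 lower). These 5 were Ddx60, Znfx1, Isg20, Rnf213 and Zc3hav1, and since the genes were chosen with this contrast known the count describes them and supports nothing. The median log2 difference of the 8, AT90ES minus Mock, was 1.16, and that of all genes was -0.02. Leaving out Mock replicate 1 left 2 of the 8 past the threshold (0.212% of all genes), Mock replicate 2 left 1 (0.198%), AT90ES replicate 1 left 1 (0.144%) and AT90ES replicate 2 left 2 (0.158%); the single array of a group then has no spread of its own and borrows that of the opposite group. With a spread that follows intensity 7 of the 8 passed, all but Pnpt1, against 1.94% of all genes. With every probe tested separately 1 of the 8, Znfx1, passed (0.0726% of probes). A block for the replicate number left all 5 (0.383% of genes), and crossing the numbers, a choice made after seeing the data, left 2 (0.266%).

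**Figure D1:**
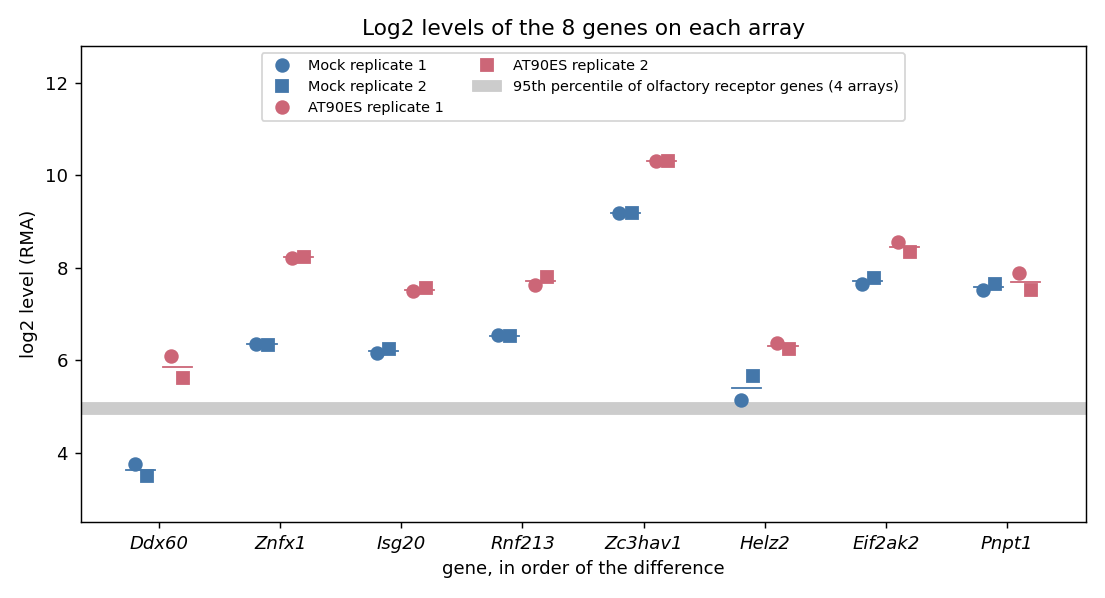
Log2 levels of the 8 genes (y axis, RMA values) on each of the 4 arrays, with genes ordered along the x axis by their difference. Circles are replicate 1 and squares replicate 2, blue for Mock and red for AT90ES, short lines are group means, and the grey band spans the olfactory receptor mark from 4.85 to 5.07. Heights are comparable within a gene only; the red points lie above the blue points for every gene but Pnpt1, and the Mock points of Ddx60 lie under the band.

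For each gene a stretch of promoter is printed where it holds a motif that the results refer to, or, for Znfx1, for contrast. Sequences and coordinates are those of RefSeq, mouse build GRCm38.p6, read 5′ to 3′ on the gene's strand, and all 8 genes were matched by symbol, with 11 windows between them. A window holds 250 bases before and 50 after an annotated start. Windows were searched on both strands for the ISRE (GAAA, any 2 bases, then GAAAC), for the palindromic interferon-gamma activated sequence (GAS, TTCNNNGAA) and for the kappaB consensus, the binding motif of NF-kappaB. A shorter-spaced repeat (GAAA, any 1 base, then GAAAC) was added after its letters had been seen in 1 window. Matches are shown in capitals and are a description of letters, not of binding.

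Among the helicases, Ddx60, a DExD/H-box protein that binds viral RNA and is described as a partner of the RIG-I-like RNA sensors, had the largest measured difference of the 8, from Mock values that were not above background. The Mock arrays gave log2 levels of 3.76 and 3.51, and the AT90ES arrays gave 6.11 and 5.62. Both Mock values lay under the background mark and both AT90ES values above it, so its Mock level may not be a measured expression level. AT90ES exceeded Mock by 2.23 ± 0.20 on the log2 scale (SE, n = 2 arrays per group), a 4.68-fold difference on the measured values. Counted from the background mark instead of the Mock values it was at least 1.81-fold higher (0.86 on the log2 scale), which is less than the difference of Znfx1, so the first place of Ddx60 rests on values under the mark. Across the 4 pairs of a Mock and an AT90ES array, the difference ran from 1.86 to 2.60. The 100 bases before its start (chr8:61927987-61928086, plus strand) are shown because they hold the ISRE at 2 places, beginning 53 and 19 bases before the start, both with the same letters.
Ddx60: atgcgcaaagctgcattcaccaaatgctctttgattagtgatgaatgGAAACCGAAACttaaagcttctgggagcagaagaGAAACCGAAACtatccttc

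Znfx1 is an RNA helicase with zinc fingers that binds viral double-stranded RNA and is found at mitochondria. The Mock arrays read 6.36 and 6.33 for it and the AT90ES arrays 8.22 and 8.24. The arrays of each group were 0.04 and 0.02 apart, and the groups were separated by 1.86 at their closest. The log2 difference was 1.89 ± 0.11 (SE), or 3.70-fold, and it ran from 1.87 to 1.90 in the 4 fits with 1 array left out. The ranges over array pairs of Ddx60 (1.86 to 2.60) and Znfx1 (1.86 to 1.91) overlapped, so their order was not settled by the spread either. RefSeq gave Znfx1 2 starts, and neither window held a match to any of the motifs searched. The 100 bases before the upstream start (chr2:167063016-167063115, minus strand) are shown for contrast with Ddx60.
Znfx1: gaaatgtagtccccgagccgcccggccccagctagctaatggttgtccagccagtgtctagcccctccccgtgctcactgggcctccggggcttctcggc

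Helz2, a large helicase of the same superfamily as Znfx1 that also has a ribonuclease domain and acts as a nuclear receptor coactivator, varied most between the Mock arrays. Mock levels were 5.14 and 5.67, and AT90ES levels were 6.37 and 6.24. The first Mock array stood close to its background mark of 5.07 and 0.54 under the second. The groups did not overlap, with a gap of 0.57. The log2 difference was 0.90 ± 0.20 (SE), or 1.87-fold, and left-out arrays moved it between 0.63 and 1.17. Helz2 did not pass limma's threshold (adjusted p = 0.298). The 30 bases shown (chr2:181241989-181242018, minus strand) hold the shorter-spaced repeat, beginning 17 bases after the annotated start.
Helz2: caggggcaGAAACGAAACtgatcgctactc

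Of the proteins that cut or degrade RNA, Isg20, an exonuclease that digests single-stranded RNA from its 3′ end, had Mock levels of 6.16 and 6.24 and AT90ES levels of 7.50 and 7.56. Arrays of a group differed by 0.08 and 0.06, and the groups were 1.26 apart at their closest. This gave a log2 difference of 1.33 ± 0.12 (SE), or 2.52-fold. RefSeq gave 3 starts for Isg20. The stretch before the most upstream one (chr7:78913324-78913423, plus strand) is shown because it holds a GAS match that begins 73 bases before the start; no window held an ISRE match.
Isg20: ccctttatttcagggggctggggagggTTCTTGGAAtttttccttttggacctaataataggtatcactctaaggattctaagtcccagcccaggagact

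Pnpt1 encodes polynucleotide phosphorylase, an exonuclease of mitochondria that degrades double-stranded RNA of mitochondrial origin together with the helicase Supv3l1. It was the only one of the 8 whose groups overlapped. Mock levels were 7.52 and 7.65 and AT90ES levels 7.89 and 7.52, so the lowest of the 4 values was an AT90ES value and the highest was the other. The log2 difference was 0.12 ± 0.16 (SE), or 1.08-fold, and pairs of arrays gave -0.13 to 0.36. With 1 array left out it ran from -0.07 to 0.30. Its promoter (chr11:29130644-29130743, plus strand) is shown because the shorter-spaced repeat begins 66 bases before the start, with no ISRE match in the window.
Pnpt1: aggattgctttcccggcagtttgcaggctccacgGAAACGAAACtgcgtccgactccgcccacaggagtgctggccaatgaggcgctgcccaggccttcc

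The zinc finger protein Zc3hav1, known as ZAP, binds CpG-rich viral RNA and recruits RNA decay enzymes. Levels of 9.18 and 9.19 in Mock stood against 10.31 and 10.31 in AT90ES, the closest agreement within groups of the 8. The difference in log2 level came to 1.13 ± 0.11 (SE), or 2.18-fold, with array pairs between 1.12 and 1.14. With 1 array left out it was 1.12 to 1.13. The stretch before its start (chr6:38354604-38354703, minus strand) is shown because it opens with a kappaB match, on the opposite strand, 100 bases before the start.
Zc3hav1: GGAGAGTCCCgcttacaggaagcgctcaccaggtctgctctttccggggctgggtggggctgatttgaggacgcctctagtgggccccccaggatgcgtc

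Rnf213, a giant ubiquitin ligase with an ATPase motor that is known as the susceptibility gene of moyamoya disease and as an antimicrobial effector, read 6.54 and 6.52 in Mock and 7.63 and 7.80 in AT90ES. The groups were 1.09 apart at their closest, against 0.18 between the AT90ES arrays. The log2 difference was 1.18 ± 0.12 (SE), or 2.27-fold. Its array pairs (1.09 to 1.28) held those of Zc3hav1 (1.12 to 1.14) and overlapped those of Isg20 (1.26 to 1.40). Its place between them was therefore not settled. The array pairs of Zc3hav1 and Isg20 did not overlap. The 95% confidence intervals of limma's fit did (0.85 to 1.41 and 1.05 to 1.62), so the order of these genes was not settled either. The promoter of Rnf213 (chr11:119389999-119390098, plus strand) is shown because it holds a kappaB match that begins 77 bases before the start.
Rnf213: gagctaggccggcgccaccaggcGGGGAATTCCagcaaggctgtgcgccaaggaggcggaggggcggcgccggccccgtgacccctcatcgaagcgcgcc

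Eif2ak2 encodes PKR, the kinase that double-stranded RNA activates and that stops translation by phosphorylating eIF2 alpha. The kinase gene read 7.66 and 7.79 in Mock and 8.55 and 8.35 in AT90ES. The groups did not overlap, with a gap of 0.56 against 0.21 between the AT90ES arrays. AT90ES minus Mock was 0.73 ± 0.13 on the log2 scale (SE), or 1.65-fold. Eif2ak2 did not pass limma's threshold (adjusted p = 0.197). Its array pairs (0.56 to 0.89) lay below those of Znfx1, Isg20, Rnf213 and Zc3hav1 and inside those of Helz2 (0.57 to 1.24) apart from the lowest pair. By limma's 95% confidence intervals, Eif2ak2 (0.39 to 1.06) overlapped Zc3hav1 (0.85 to 1.41), Rnf213 (0.88 to 1.49) and Isg20 (1.05 to 1.62). Its place below those genes was therefore not settled. The interval of Znfx1 (1.61 to 2.17) lay above that of Eif2ak2. The first stretch shown (chr17:78882533-78882562, minus strand) holds an ISRE match that begins 18 bases after the annotated start, and the second (chr17:78882733-78882762, minus strand) a GAS match that begins 178 bases before it.
Eif2ak2: tccgccggGAAAACGAAACagaagagaacc
Eif2ak2: tcctgcagagctTTCCCAGAAtggaagcca

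**Figure D2:**
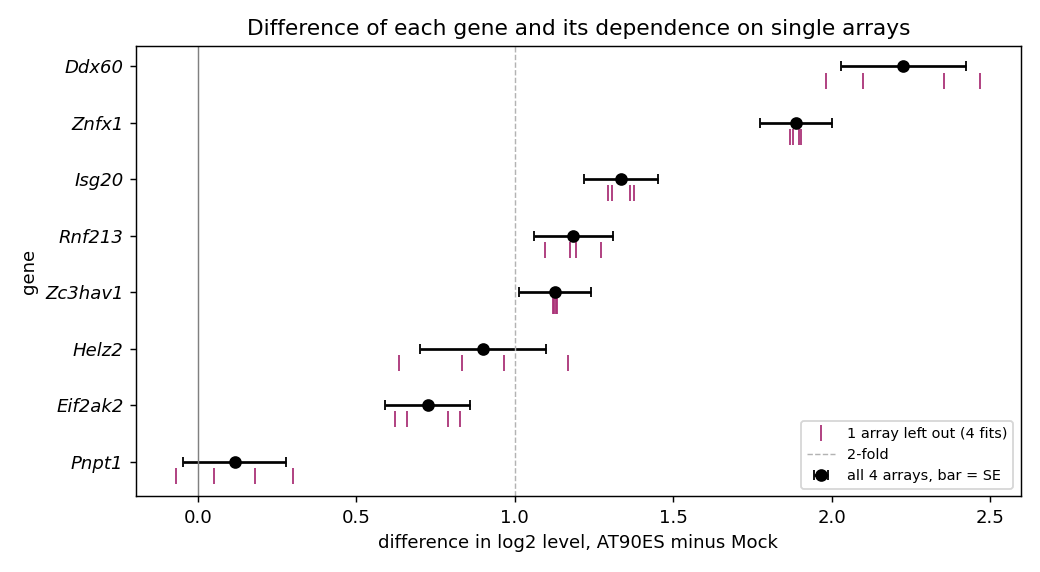
Difference in log2 level, AT90ES minus Mock, of each of the 8 genes (x axis), with points from all 4 arrays, bars of 1 SE of limma's fit, and purple ticks for the 4 fits that each left out 1 array. The ticks of Zc3hav1 (1.12 to 1.13) and Znfx1 (1.87 to 1.90) lie close together, those of Helz2 spread from 0.63 to 1.17, and those of Pnpt1 fall on both sides of 0.

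Read across the promoters, the ISRE stood in windows of 2 of the 8 genes, Ddx60 and Eif2ak2, and in 0.944% of the 27025 genes with a window. Among measured genes with a window the share was 0.901%, and among the 73 such genes that limma called higher, Ddx60 included, it was 19.2%. The GAS palindrome stood in windows of Isg20 and Eif2ak2, against 9.55% of all genes, and the kappaB consensus in those of Rnf213 and Zc3hav1, against 5.14%. The shorter-spaced repeat stood in those of Helz2 and Pnpt1, against 0.81%. Among the 73 called genes, Isg20, Rnf213 and Zc3hav1 included, the shares were 12.3% for GAS, 11% for kappaB and 5.48% for the shorter-spaced repeat. Among measured genes with a window these shares were 9.15%, 5.54% and 0.736%. Genes with and without an ISRE match were mixed in the order of differences. Matches stood at Ddx60, whose difference starts from Mock values under the background mark, and at Eif2ak2, at 0.73, and Znfx1, at 1.89, had none. A window without a match says only that these letters are not in it.

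**Figure D3:**
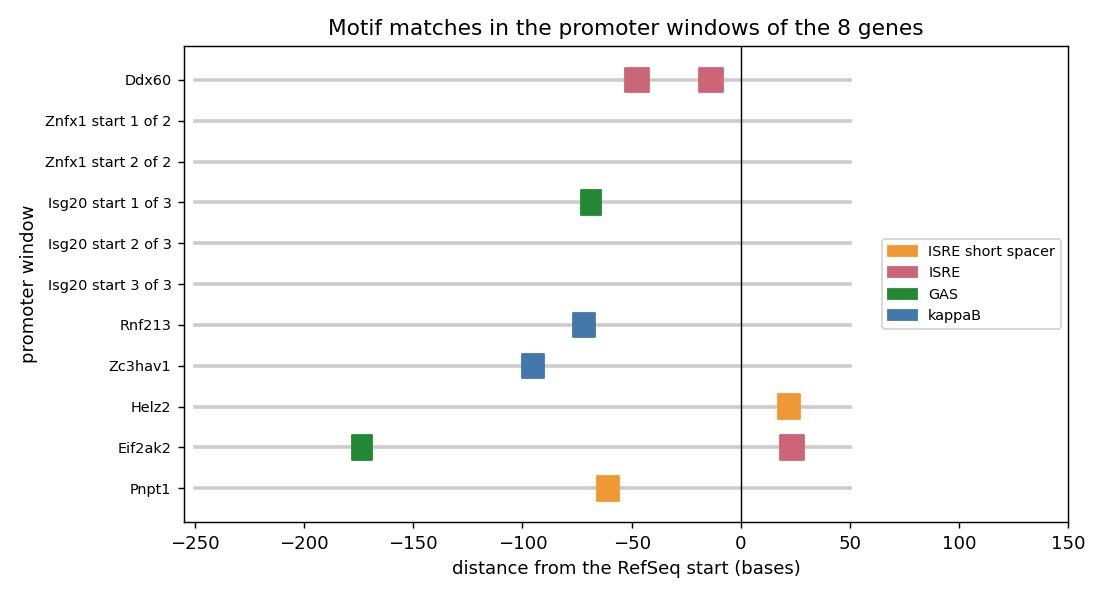
Positions of the motif matches (coloured blocks) in the 11 promoter windows of the 8 genes, by distance in bases from the RefSeq start (x axis, from 250 before to 50 after it). The 2 ISRE blocks of Ddx60 lie before the start and that of Eif2ak2 after it, and both windows of Znfx1 are empty.

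Other genes of the same pathways were read from lists made by function. The ZAP list held genes that work with Zc3hav1 or resemble it. Of its 7 measured genes 1 rose, 0 fell and 6 did not pass, with a median log2 difference of 0.37. Among all genes 0.415% were called higher. At limma's unadjusted p under 0.05, 4 of the 7 were higher and 0 lower. The risen gene was Parp12, a zinc finger ADP-ribosyltransferase related to ZAP, at 7.75 and 7.71 on the Mock and 9.20 and 9.13 on the AT90ES arrays, a difference of 1.44 ± 0.12 (SE; adjusted p = 0.0133, and 4.76e-07 to 0.128 over the alternatives). It lost its call without any 1 of the 4 arrays (adjusted p = 0.0598 to 0.128). Khnyn, the endonuclease that cuts RNA bound by ZAP, stood at 0.50 (adjusted p = 0.387) with both Mock arrays, at 5.05 and 4.83, under their background marks. Trim25, the ubiquitin ligase that ZAP needs, stood at 0.15, a difference between readings under the background mark on all 4 arrays. These were 4.72 and 3.58 on the Mock and 4.27 and 4.33 on the AT90ES arrays. N4bp1, another endonuclease of the KHNYN family, stood at 0.37 (adjusted p = 0.546).

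Of the 15 measured genes around eIF2 phosphorylation, 0 rose and 0 fell in limma, against 2 higher and 0 lower at an unadjusted p under 0.05, and their median was 0.11. Beside PKR, the kinases of eIF2 alpha are Eif2ak1, which senses haem and mitochondrial stress, Eif2ak3, which senses unfolded protein in the endoplasmic reticulum, and Eif2ak4, which senses uncharged tRNA. Their log2 differences were 0.06, 0.62 and 0.02. Eif2ak3 had levels of 7.62 and 7.84 on the Mock and 8.43 and 8.27 on the AT90ES arrays, and its adjusted p was 0.301. Prkra, a protein activator of PKR, stood at -0.04. Ppp1r15a, the stress-induced subunit of the phosphatase that reverses the mark, stood at 0.46 (adjusted p = 0.375) and Ppp1r15b, its constitutive counterpart, at 0.11. Dnajc3, a chaperone that inhibits PKR, stood at -0.17 (adjusted p = 0.725).

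Among the 8 measured superfamily 1 helicases related to Helz2 and Znfx1, limma called 0 higher and 0 lower, against 1 and 1 at an unadjusted p under 0.05, with a median of 0.04. Mov10, an RNA helicase that restricts retroelements, had levels of 7.28 and 7.33 on the Mock and 7.86 and 8.0 on the AT90ES arrays. Its difference was 0.63 ± 0.12 (SE; adjusted p = 0.221, 0.00648 with an intensity trend in the spread and up to 0.63 over the alternatives). Helz, the closest namesake of Helz2, stood at 0.17, the splicing helicase Aqr at 0.12 and Upf1, of nonsense-mediated decay, at -0.18. Of 50 other DEAD and DExH box helicases 0 passed in either direction in limma. At limma's unadjusted p under 0.05, 1 was higher and 1 lower, and the median was -0.0048. The list did not hold the RIG-I-like RNA sensors, so it says nothing of those helicases. Eif4a1, of translation initiation, stood at 0.09 and Ddx5, a splicing and transcription cofactor, at 0.15. All 50 lay between -0.41 and 0.43.

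Of 9 measured exonucleases related to Isg20, 0 passed in limma, against 1 higher and 0 lower at an unadjusted p under 0.05, and the median was -0.05. Aen, a nuclease known as a p53 target, stood at 0.46 (adjusted p = 0.402), Isg20l2, a nucleolar relative, at -0.12, and Rexo2, which degrades short RNAs, at -0.09. Among 20 genes of mitochondrial RNA processing 0 passed, and 0 were higher or lower at an unadjusted p under 0.05 in limma, with a median of -0.03. Supv3l1, the partner of Pnpt1, stood at 0.12, the same size as Pnpt1, with Mock arrays of 7.46 and 7.54 and AT90ES arrays of 7.72 and 7.53 that overlapped them. Grsf1, an RNA-binding protein of mitochondrial granules, stood at 0.03 and Tbrg4, of mitochondrial RNA stability, at -0.03. Of 35 genes of general RNA decay 0 passed in limma, against 1 higher and 1 lower at an unadjusted p under 0.05, with a median of -0.03. Exosc1, a subunit of the RNA exosome, stood at -0.20 and Dis3, its catalytic nuclease, at -0.09.

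**Figure D4:**
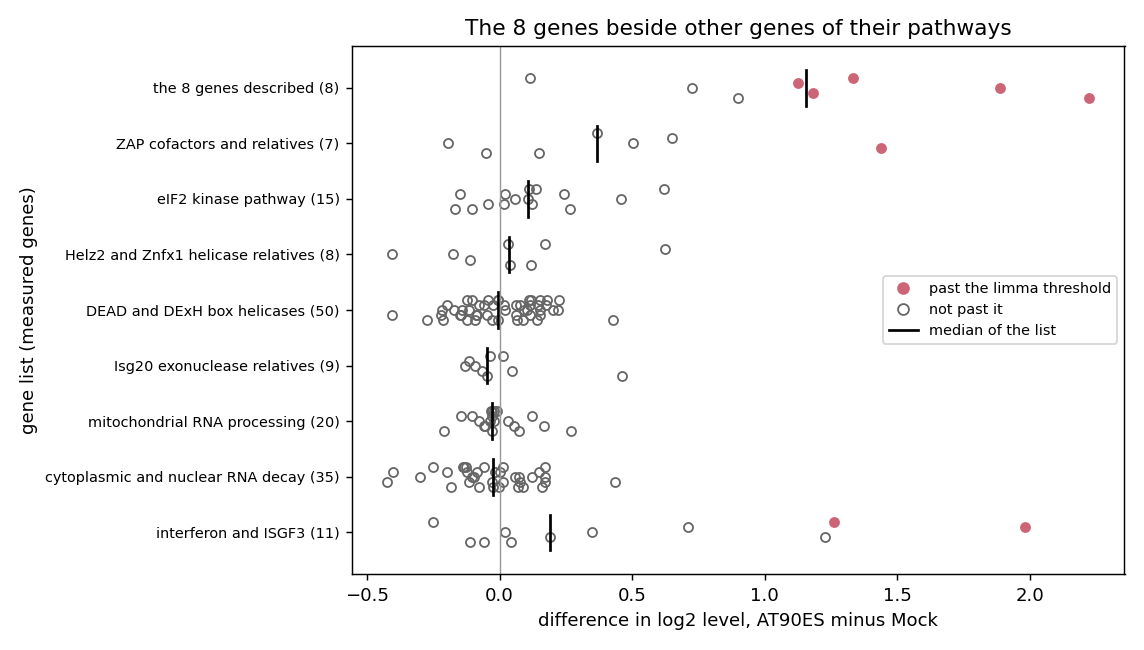
Differences in log2 level, AT90ES minus Mock (x axis), of the 8 genes and of the measured genes of each pathway list, 1 circle per gene, filled red where limma's adjusted p was under 0.05, with a black line at the list's median. The 8 have a median of 1.16 and were chosen with this contrast in view; the medians of the other lists run from -0.05 to 0.37.

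Upstream of the ISRE, 2 of 11 measured genes of interferon signalling rose, 0 fell and 9 did not pass, with a median of 0.19. Over all genes, 0.415% were called higher. At limma's unadjusted p under 0.05, 5 of the 11 were higher and 0 lower, against 999 and 1017 of all 22180 genes. Stat2 had levels of 5.89 and 5.90 on the Mock and 7.81 and 7.95 on the AT90ES arrays, a difference of 1.98 ± 0.12 (SE; adjusted p = 0.00389, and 7.63e-07 to 0.0442 over the alternatives). Irf9, which gives the complex its DNA contact, stood at 1.26 ± 0.13 (SE; adjusted p = 0.0308) and lost its call without any 1 of the 4 arrays (0.119 to 0.219), with every probe tested separately (0.188) and with the crossed replicate block (0.0525); its lowest adjusted p over the alternatives was 0.000261. Ifnb1, the interferon beta gene, had levels of 3.15 and 3.29 on the Mock and 2.89 and 3.05 on the AT90ES arrays, all under the background mark.

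For each of the 8, the gene with the most similar pattern was found by Euclidean distance between log2 levels centred on their own mean over the 4 arrays, leaving out the 8 themselves and gene models without an approved name. With 4 arrays in 2 groups this likeness mostly reflects a difference of the same size, and it is given as a description. The nearest to Ddx60 was Samd9l, an interferon-induced antiviral gene (distance 0.285, log2 difference 2.15), and to Znfx1 it was Nfkbie, an inhibitor of NF-kappaB (0.125, 1.97). Isg20 lay nearest Lgals3bp, a secreted glycoprotein (0.0416, 1.32), and Zc3hav1 nearest Zfp36, which destabilises cytokine mRNAs (0.0425, 1.11). Rnf213 lay nearest Atm, the DNA damage kinase (0.0676, 1.23). The nearest gene to Helz2 was Trim7, a ubiquitin ligase (0.116, 0.98), to Eif2ak2 it was Pck2, a mitochondrial enzyme (0.0478, 0.72), and to Pnpt1 it was Nxn, a redox protein (0.0166, 0.12).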

How the data were processed

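RNA of B16-OVA cells was measured on 4 Affymetrix arrays. The deposited values are log2 levels made with RMA by the authors, per the submitters' processing notes; its version and settings are not given in the sources used here. RMA equalises the distributions of the arrays, so each difference is relative to the other genes. Probes were named from the platform's annotation: of 41345 probes, 23521 had 1 gene symbol, 1814 several and 16010 none. Only probes with 1 symbol named genes, and the probe with the highest mean stood for a gene with more than 1.

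AT90ES was compared with Mock over 22180 genes in limma 3.58.1 (R 4.3.3; lmFit, eBayes, no covariate, no filter). Adjusted p-values are limma's, by the Benjamini-Hochberg method over all genes, with a threshold of 0.05. The SE is that of the fit, which shares spread across genes. The steps were tested on simulated data.

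The 8 genes, the gene lists and the motifs were chosen with earlier results of these data known. Named genes are the 8, up to 3 genes past the threshold in each list or its 2 highest where none passed, a set of pathway genes whatever their values, and the gene nearest each of the 8; others are said to be outside this rule. Promoter windows came from RefSeq (GRCm38.p6). Alternatives changed the spread model, the scaling, the filter on dim genes, the probes, the replicate block and the arrays used. Same-numbered arrays of the 2 groups did not deviate together (r = -0.222 across genes, -0.307 over genes above background). The numbers were therefore not taken to pair the samples. A negative r means that opposite-numbered arrays deviated together, the pairing used in the crossed replicate block. Whether such arrays were handled together was not tested.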

Additional observations from a re-analysis of the deposited data

How the results depend on the processing

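The 8 genes kept the sign of their difference in all 12 alternatives except Pnpt1, which fell to -0.07 without AT90ES replicate 1. Of the 8, 5 passed the threshold, 7 with an intensity trend in the spread, 1 with every probe tested separately, 2 with the crossed replicate block and 1 to 2 with an array left out. All genes called higher numbered 92, and 431 with an intensity trend, 181 with dim genes left out, 172 with arrays centred on their median, 30 with every probe tested separately and 32 to 47 with an array left out; genes called lower numbered 0, and 162, 15 and 4 under the first 3 of these. With an intensity trend the eIF2 list had 1 higher (Eif2ak3), the ZAP list 2 (Tiparp joined Parp12), the helicase relatives 1 (Mov10), interferon signalling 4 (Irf1 and Irf2 joined, as with dim genes left out, also 4) and general RNA decay 1 lower (Dcps); Tiparp, Irf1, Irf2 and Dcps are named after their values were seen. With every probe tested separately the ZAP list had 0 and interferon signalling 1; with an array left out they had 0 and 1 in each of the 4 fits. The replicate block gave 85 higher over all genes and 5 of the 8. Beyond the intensity trend and the dim filter, Irf1 also passed with arrays centred on their median (limma's adjusted p = 0.00251) and with the replicate block (0.0488). The crossed pairing, chosen after seeing the data, gave 59 over all genes and 1 in interferon signalling. Searched before the start only, the ISRE stood at 1 of the 8 genes instead of 2 (0.796% of all genes) and the shorter-spaced repeat also at 1 instead of 2 (0.681%). An exact two-sided permutation test cannot go below p = 0.333 with 2 arrays in each group.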
